A study of Mus musculus with 32 samples.

Results

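The genes described here are the cytochrome P450 genes of mouse lung other than Cyp1a1, Cyp1b1 and Cyp2f2, which were left out by name. They were taken from the deposited count table as protein-coding genes whose whole symbol is Cyp, digits, 1 letter and digits, and which had at least 10 raw counts in at least 3 of 32 libraries. Of 93 genes with a symbol of this form, 62 qualified, 28 stayed under the threshold and 3 were left out, among 35275 genes in the table. The genes were thus selected on their raw counts over all libraries, and that these genes are detected somewhere is no finding. Just inside the threshold were Cyp2d40 (29, 22 and 11 counts in its 3 highest libraries), Cyp26a1 (47, 38 and 13) and Cyp3a44 (20, 16 and 13). Just outside it were Cyp3a57 (11, 10 and 9), Cyp2d9 (116, 16 and 8) and Cyp27b1 (9, 9 and 7).

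Cytochrome P450 enzymes are haem proteins that insert an oxygen atom into their substrate, with electrons passed on by the reductase Por in the endoplasmic reticulum or by ferredoxin in mitochondria. The large families CYP2 and CYP3 oxidise drugs, inhaled chemicals and other xenobiotics, CYP4 enzymes hydroxylate fatty acids, and other families act on sterols, bile acids, steroid hormones and the vitamins A and D. In rodent lung they are known chiefly from club cells, alveolar type 2 cells and endothelium, while most CYP2C, CYP2D and CYP3A genes are known as genes of the liver.

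All libraries were made from poly(A) RNA of the lungs of C57B/6 mice. In the first experiment, males and females were kept in room air (3 libraries each) or exposed to cigarette smoke (5 each), all for 5 months. The second used females only, all in smoke, after sham surgery or ovariectomy, for 3 months (3 libraries each) or 5 months (5 each); no air group belongs to it. The labels do not say that each library came from its own animal, so p-values measure the spread between libraries. Values per library are given as CPM, counts scaled to a common library size within an experiment, and levels of different genes are compared as the deposited TPM, which correct for gene length.

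Library totals ran from 13790052 to 24497332 counts. Libraries stood apart by liver RNA: Alb, the serum albumin gene of hepatocytes, was above 100 CPM in 7 libraries, namely libraries 2 and 3 of ovariectomy at 3 months (502 and 1151 CPM), libraries 1 and 2 of sham at 5 months (586 and 508), library 5 of ovariectomy at 5 months (1113), male air library 1 (259) and female air library 2 (144). Male air library 2 (50.01), female air library 1 (21.4) and library 2 of ovariectomy at 5 months (15.4) followed, and the other 22 were below 10 CPM. The 7 libraries held counts of 17 or 18 of 18 liver marker genes, whose summed level was 270.5 to 1992 CPM there and 4.03 to 123 CPM in the other 25. Where the liver RNA came from was not tested, and results that touch these libraries are given with and without them.

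Sequences upstream of the start show how alike some of these genes are, although their levels in lung differ greatly. The 250 bases before the RefSeq start (GRCm38.p6), all on the plus strand of chromosome 7, are shown for Cyp2b10 (chr7:25897408-25897657), Cyp2b9 (chr7:26173159-26173408), Cyp2b13 (chr7:26061245-26061494), Cyp2a5 (chr7:26835089-26835338) and Cyp2a4 (chr7:26306942-26307191). Capitals mark TTATGNAA (the site of PAR bZIP factors), GTTAAT (the core of the HNF1 site) and TATAAA, on either strand and without overlap, in Cyp2b10, Cyp2a5 and Cyp2a4; in Cyp2b9 and Cyp2b13, which hold none of the 3, capitals mark the bases in which the pair differs.
Cyp2b10: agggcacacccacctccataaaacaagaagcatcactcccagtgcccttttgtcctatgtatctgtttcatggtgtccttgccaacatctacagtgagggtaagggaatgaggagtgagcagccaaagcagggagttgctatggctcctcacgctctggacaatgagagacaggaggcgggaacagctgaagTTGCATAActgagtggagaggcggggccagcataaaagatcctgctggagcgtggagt
Cyp2b9: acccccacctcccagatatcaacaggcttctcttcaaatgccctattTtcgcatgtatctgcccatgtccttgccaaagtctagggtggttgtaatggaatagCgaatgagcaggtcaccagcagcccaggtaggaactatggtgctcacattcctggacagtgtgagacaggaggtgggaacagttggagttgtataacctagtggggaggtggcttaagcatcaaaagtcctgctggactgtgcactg
Cyp2b13: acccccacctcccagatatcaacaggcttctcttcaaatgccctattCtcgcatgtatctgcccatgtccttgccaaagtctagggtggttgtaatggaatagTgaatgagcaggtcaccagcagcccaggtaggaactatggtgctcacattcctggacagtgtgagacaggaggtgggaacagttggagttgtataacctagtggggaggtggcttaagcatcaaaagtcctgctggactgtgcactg
Cyp2a5: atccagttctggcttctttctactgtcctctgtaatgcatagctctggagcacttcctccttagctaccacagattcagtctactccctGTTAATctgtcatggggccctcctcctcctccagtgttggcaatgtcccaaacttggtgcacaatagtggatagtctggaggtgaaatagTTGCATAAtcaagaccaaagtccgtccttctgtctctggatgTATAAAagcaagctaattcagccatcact
Cyp2a4: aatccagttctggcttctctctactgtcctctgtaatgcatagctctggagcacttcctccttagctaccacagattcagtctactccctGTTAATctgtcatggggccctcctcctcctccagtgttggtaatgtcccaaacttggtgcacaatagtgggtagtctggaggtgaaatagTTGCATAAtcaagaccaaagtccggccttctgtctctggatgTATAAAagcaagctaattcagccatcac

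The promoters of Cyp2b9 and Cyp2b13 differed in 2 of 250 bases, and each was 72.2% identical to that of Cyp2b10 over 245 aligned bases. Those of Cyp2a5 and Cyp2a4 were 98.4% identical over 249 bases and shared all 3 motifs. Of the 62 genes, 50 had a RefSeq promoter. TATAAA was found in 5 of 22 promoters of the genes detected in most libraries (defined in the next paragraph), in 8 of 12 of the middle group and in 7 of 16 of the liver-RNA group, against 13.0% of 27025 mouse promoters. The GC box GGGCGG was in 11, 1 and 1 of the same promoters, against 32.9% of all. TTATGNAA was in 3, 2 and 0, against 3.23%, and GTTAAT in 2, 2 and 3, against 6.52%.

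By the number of libraries with at least 10 counts, the 62 genes fell into 3 groups, whose limits were set after the values were seen. A lung group of 28 genes reached 10 counts in at least 22 libraries, and 21 of them did so in all 32. A liver-RNA group of 21 genes reached 10 counts only in libraries over 100 CPM of Alb, though fewer counts occurred elsewhere, and 13 genes lay between. The number of P450 genes with 10 counts was 46 to 59 in the 7 libraries over 100 CPM of Alb and 25 to 34 in the other 25. By known substrates the 62 comprised 34 xenobiotic enzymes, 16 fatty acid hydroxylases, 6 sterol and bile acid enzymes, 3 vitamin A or D enzymes, 2 steroid hormone enzymes and the orphan Cyp20a1. The lung group held 12 of the 16 fatty acid enzymes and 8 of the 34 xenobiotic ones. Genome neighbourhoods differed too: of 13 members on chromosome 19, 10 were in the liver-RNA group and 1 in the lung group, whereas 6 of 7 on chromosome 17 were in the lung group.

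**Figure D1:**
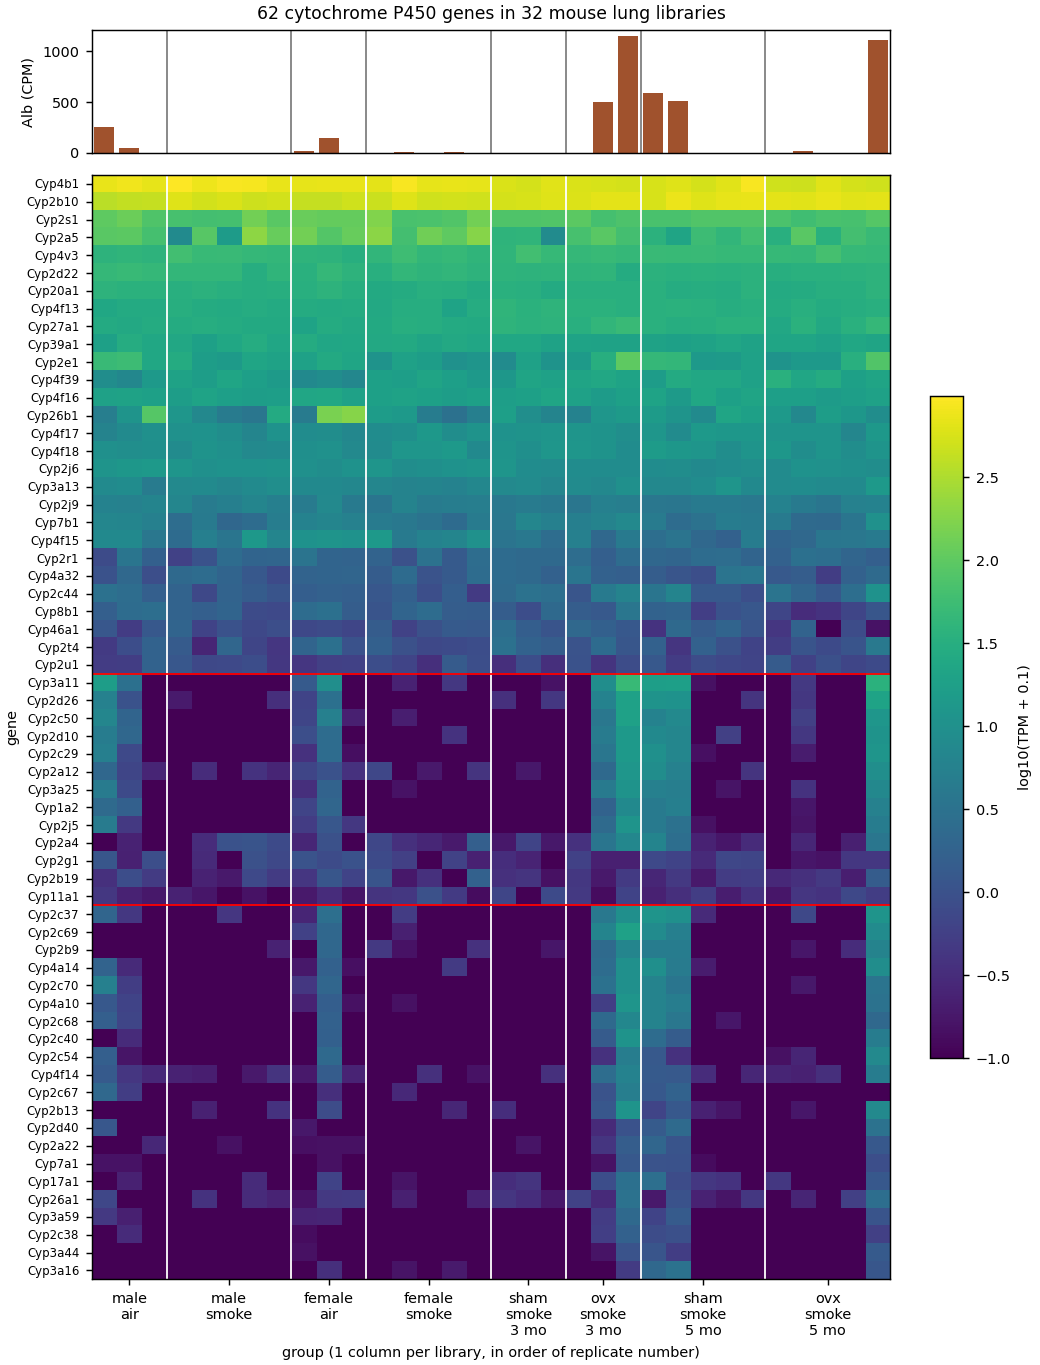
TPM of the 62 genes (rows, colour as log10 of TPM plus 0.1) in 32 libraries (columns by group), with Alb in CPM as bars above; red lines part the 28 lung genes, the 13 genes between and the 21 of the liver-RNA group. The lower block is brightest under the 7 tall Alb bars, by which it was defined, and faint or dark elsewhere. Cyp4b1 and Cyp2b10, the top rows, are bright in all libraries.

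A pair of genes made up most of the RNA of these 62 genes; Cyp2f2, left out by name, is not in this sum. Cyp4b1, a fatty acid and xenobiotic oxidase known for high levels in lung, had a median of 679.9 TPM over the 32 libraries (482.5 to 975 TPM). Cyp2b10, a xenobiotic oxidase and the classic target of the nuclear receptor CAR in liver, had a median of 577 TPM (381 to 741 TPM). Together they held 58.7 to 78.6% of the summed TPM of the 62 genes in each library. Far below came Cyp2s1 (median 78.5 TPM), an airway oxidase, and Cyp2a5 (63.6 TPM), the coumarin and nicotine oxidase. Next in order were Cyp4v3 (46.0 TPM), the mouse form of human CYP4V2, Cyp2d22 (38.2 TPM), Cyp20a1 (32.4 TPM), Cyp4f13 (30.5 TPM), the sterol hydroxylase Cyp27a1 (30.2 TPM) and the oxysterol hydroxylase Cyp39a1 (23.0 TPM). The ranges over libraries of Cyp4b1 and Cyp2b10 overlapped, as did those of each following pair of neighbours, so that only the step from these 2 genes to the rest was clear of the spread between libraries. At the low end of the lung group were the cholesterol hydroxylase Cyp46a1 (1.005 TPM), Cyp2t4 (0.964 TPM) and Cyp2u1 (0.620 TPM).

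The smoke comparison asks which P450 genes differed between mice in smoke and in air, within each sex. In females 1 of 38 members tested rose and 0 fell, where 7.7% of all 16361 genes tested were called, 4.52% higher and 3.18% lower (adjusted p under 0.05, edgeR's quasi-likelihood test). In males 3 rose and 5 fell of 38, where 10.3% of all genes were called, 4.93% higher and 5.33% lower. The 38 are the 28 lung genes and 10 of the middle group: the 21 genes of the liver-RNA group did not pass the filter on low counts in this experiment. At an unadjusted p under 0.05 there were 13 of 38 members in each sex, beside 21.3% of all genes in females and 23.2% in males. Single libraries moved these counts: in males 3 members were called without air library 1, 4 without smoke library 3, 5 without air library 2 or smoke library 1, and 12 without male air library 3 or female air library 3. In females the count was 10 with male air library 3 left out and 3 with library 1 of either air group left out. These fits also repeat the filter on low counts, so that Cyp4a10, not tested otherwise in this experiment, was called in some of them.

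Cyp4f39 was the member called in both sexes. It is the mouse counterpart of human CYP4F22, the hydroxylase of very long fatty acids used for skin barrier ceramides, and lies at chr17:32468462-32492479 on the plus strand (GRCm38). In females it stood at 6.12, 6.36 and 5.82 CPM in air libraries 1 to 3 and at 13.8, 13.3, 15.7, 13.2 and 11.2 CPM in smoke libraries 1 to 5. All 5 smoke libraries lay above all 3 air libraries, and air varied little. The means were 6.10 ± 0.272 (SD, n = 3) and 13.5 ± 1.61 CPM (SD, n = 5), so the gene rose 2.20-fold (1.14 on the log2 scale with an SE of 0.18, adjusted p = 4.02e-04). In males the values were 7.04, 5.34 and 9.63 CPM in air and 14.8, 12.4, 16.2, 14.8 and 11.9 CPM in smoke. Again the groups did not overlap, and the rise was 1.91-fold (log2 fold change 0.94, SE 0.17, adjusted p = 0.00143). Between the sexes the difference of the rises was -0.20 (log2, male minus female, SE 0.24, adjusted p = 0.960). In the second experiment, where every library was from smoke, the 16 values ran from 9.38 to 26.6 CPM.

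Cyp2b10 rose in males. Air libraries 1 to 3 held 363, 387 and 371 CPM, and smoke libraries 1 to 5 held 554, 466, 526, 489 and 501 CPM. Every smoke library lay above every air library. The fold was 1.36 (0.44 on the log2 scale with an SE of 0.10, adjusted p = 0.0066). In females the air values of 413, 372 and 505 CPM overlapped smoke at 422, 562, 451, 464 and 479 CPM (log2 fold change 0.14, SE 0.10, adjusted p = 0.440). The sexes were not shown to differ in this respect, as the interaction had a log2 difference of 0.30 (SE 0.14) with an adjusted p of 0.854.

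Cyp4v3, a hydroxylase of medium-chain fatty acids, also rose in males. It stood at 71.01, 72.8 and 63.0 CPM in air and at 108, 87.8, 88.9, 90.3 and 84.0 CPM in smoke, again without overlap. The fold was 1.33 (log2 fold change 0.41, SE 0.10, adjusted p = 0.0136), and without male air library 3 the call was lost (adjusted p = 0.0895). Female values were 74.4, 63.8 and 62.2 CPM in air and 76.3, 102, 78.01, 83.4 and 75.2 CPM in smoke. These groups did not overlap either, with a log2 fold change of 0.31 (SE 0.10) and an adjusted p of 0.0712.

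The 3 rises in males remained called without the 2 air libraries over 100 CPM of Alb. Without all libraries over 10 CPM of Alb, which leaves 1 air library of each sex, the male differences were 0.55 for Cyp4f39 (log2, adjusted p = 0.217), 0.46 for Cyp2b10 (adjusted p = 0.0631) and 0.55 for Cyp4v3 (adjusted p = 0.0505), while Cyp4f39 in females stayed called.

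The 5 members that fell in males are genes known from liver, and each was higher in male air libraries 1 and 2, which held liver RNA, than in male air library 3. Cyp2e1, the ethanol-oxidising P450, stood at 45.1, 47.5 and 18.9 CPM in male air libraries with 259, 50.01 and 1.78 CPM of Alb. Smoke libraries held 23.9, 14.1, 12.5, 20.7 and 18.0 CPM, so that air library 3 lay inside the smoke range. The fall was 2.09-fold (-1.06 on the log2 scale with an SE of 0.29, adjusted p = 0.0316). In females Cyp2e1 was 17.3, 21.4 and 21.04 CPM in air against 9.69, 16.8, 13.98, 8.73 and 10.7 CPM in smoke. Those groups did not overlap, at a log2 fold change of -0.73 (SE 0.30, adjusted p = 0.171). Per 1000 Alb counts, Cyp2e1 was at 174 in male air library 1 and at 951 in male air library 2. In the 6 female libraries over 100 CPM of Alb it was at 54.1 to 148. Markers of fat, another tissue known for Cyp2e1, summed to 210, 249 and 124 CPM in male air libraries 1 to 3. In male smoke libraries 1 to 5 they summed to 226, 167, 128, 197 and 232 CPM. The parts of liver RNA and of fat in the Cyp2e1 values were not tested.

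Cyp7b1, an oxysterol hydroxylase, was 7.33, 6.63 and 5.11 CPM in male air and 2.60, 4.44, 2.05, 2.75 and 5.18 CPM in male smoke. One smoke library lay just inside the air range. The fall was 1.87-fold (log2 fold change -0.90, SE 0.27, adjusted p = 0.0376). Per 1000 Alb counts, Cyp7b1 was at 28.3 in male air library 1 and at 133 in male air library 2. In the 6 female libraries over 100 CPM of Alb it was at 4.96 to 43.1. The part of liver RNA in this fall was not tested. Female air was even at 6.27, 6.21 and 6.35 CPM, above all 5 smoke libraries (4.58, 4.06, 3.25, 2.33 and 4.79 CPM), with an adjusted p of 0.118. Cyp3a25, Cyp2c50 and Cyp2d10, xenobiotic P450 genes of liver, had no count in any of the 5 male smoke libraries. In male air libraries 1 to 3 they held 4.52, 0.646 and 0 CPM (Cyp3a25), 6.16, 1.58 and 0 CPM (Cyp2c50) and 3.81, 1.58 and 0 CPM (Cyp2d10). They passed the filter on low counts only through air libraries with liver RNA, the group in which they were high, so that their tests are given as a description. Against a floor of 3 counts over the smoke group their mean air levels were at least 48.3-fold, 72.5-fold and 50.5-fold higher, with adjusted p of 0.0255, 0.0367 and 0.028. Leaving out single libraries ended the call of Cyp2c50 in 12 of 16 fits, of Cyp2d10, Cyp2e1 and Cyp7b1 in 5 each and of Cyp3a25 in 2. Without libraries over 100 CPM of Alb none of the 5 was called, and without those over 10 CPM the log2 difference of Cyp2e1 was -0.08 (adjusted p = 0.951). In the same comparison 12 of 16 liver markers tested fell in males and none in females, where 5.33% and 3.18% of all genes fell. These markers too were high in the air libraries with liver RNA. Those at or near 0 elsewhere could pass the filter only through those libraries, so that this count is a description.

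**Figure D2:**
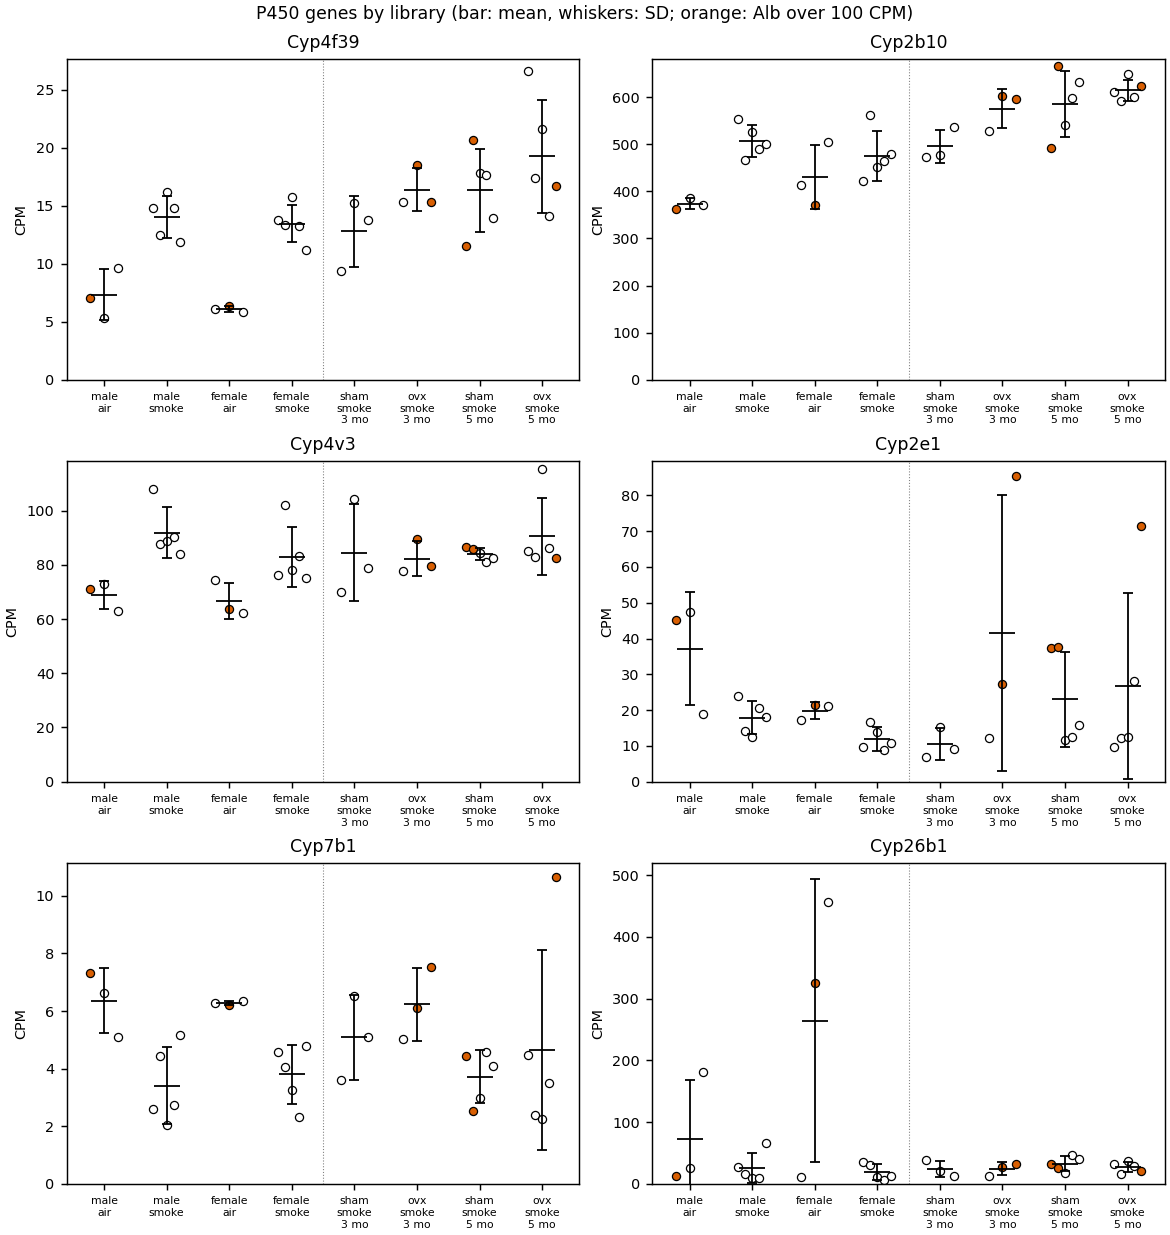
CPM of 6 P450 genes by group (1 point per library, bar for the mean, whiskers for the SD, orange for Alb over 100 CPM; the dotted line parts the experiments). Cyp4f39 was 5.34 to 9.63 CPM in air and 11.2 to 16.2 CPM in smoke within the first experiment, while the highest Cyp2e1 values of the second experiment were orange points.

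Cyp26b1, a retinoic acid hydroxylase that limits vitamin A signalling, varied widely between libraries of 1 group, and was singled out after its values were seen. It stood at 325 and 457 CPM in female air libraries 2 and 3 and at 182 CPM in male air library 3. The remaining 29 libraries, air and smoke, ran from 6.62 to 66.2 CPM, female air library 1 among them at 10.6 CPM. The high libraries were all from air, and the groups overlapped in both sexes. The difference had a log2 fold change of -3.76 in females (SE 1.11, adjusted p = 0.0614) and of -1.53 in males (SE 1.09, adjusted p = 0.457). In females it was called without male air library 3, without female air library 1, without libraries over 10 CPM of Alb and by DESeq2. Its relative Cyp26a1, of the liver-RNA group, was not tested in this experiment. Cyp2r1, a vitamin D hydroxylase at a median of 1.93 TPM, was not called.

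Cyp2a5, Cyp2s1 and Cyp4f15, a CYP4F gene, were uneven among libraries of 1 group. They are set here beside Scgb1a1, the secretoglobin of club cells, and were singled out after their values were seen. In male smoke libraries 1 to 5 Cyp2a5 was 7.51, 84.1, 14.4, 216 and 114 CPM, beside 4905, 11960, 7372, 30280 and 21000 CPM of Scgb1a1. Libraries 4 and 5 were highest in both genes, and libraries 1 and 3 lowest. In female smoke libraries 1 to 5 Cyp2a5 was 187, 59.5, 124, 92.2 and 179 CPM, beside 22370, 9333, 8663, 6917 and 24710 CPM of Scgb1a1. Libraries 1 and 5 were highest in both there. Cyp2s1 in male smoke was 98.5, 92.2, 95.5, 228 and 147 CPM, and Cyp4f15 was 2.45, 5.26, 3.48, 15.2 and 6.89 CPM. None of the 3 was called in any comparison, and in smoke against air their log2 differences lay between -0.46 and 0.22 with SEs of 0.37 to 0.80. Of 9 club cell markers tested, 0 were called in either sex, where 7.7% of all genes were called in females and 10.3% in males. Their median log2 difference was -0.588 in females and -0.42 in males. Their sum was 10540 to 30800 CPM in male air and 5401 to 32900 CPM in male smoke. In females it was 26540 to 37620 CPM in air and 8324 to 27270 CPM in smoke. Markers of ciliated cells moved with the same libraries: they summed to 67.2, 166, 107, 471 and 258 CPM in male smoke libraries 1 to 5 and to 491, 153, 194, 161 and 425 CPM in female smoke libraries 1 to 5. The part of airway cell content in these values was not tested, and in whole lung fewer cells of a type and less RNA per cell cannot be told apart.

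**Figure D3:**
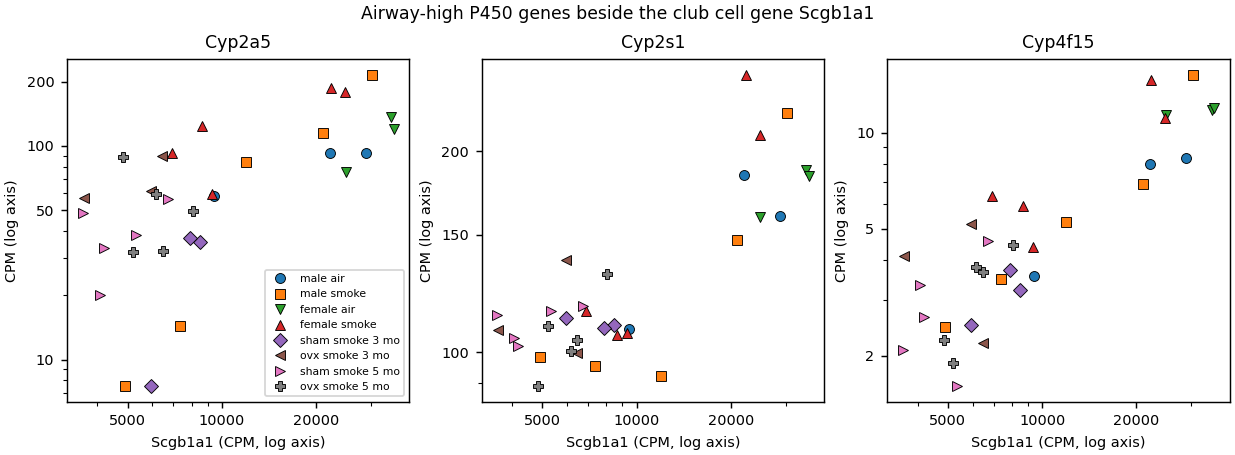
CPM of Cyp2a5, Cyp2s1 and Cyp4f15 against Scgb1a1 (all axes logarithmic, 1 symbol per library, by group). The highest point of Cyp2a5, 216 CPM in male smoke library 4, lies at 30280 CPM of Scgb1a1, while all libraries of the second experiment lie at or below 8499 CPM.

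Cyp2a4 and Cyp2a5 are hard to tell apart in such data. Their transcripts were 98.2% identical, and the counting program is not given, so reads may have been split between them. Cyp2a4 held 37 to 102 counts in the 5 libraries of the second experiment over 100 CPM of Alb and 0 in male air library 1, where Cyp2a5 was at 93.1 CPM. Of the 62 members, 21 had another P450 transcript at least 90% identical to theirs where the transcripts aligned, and 15 at least 95%, among them Cyp4f16 (96.1%, Cyp4f37), Cyp4a10 and Cyp4a32 (97.2%) and Cyp3a25 and Cyp3a59 (97.0%). Counts of such pairs are uncertain in the same way. No transcript of this kind was found for Cyp4f39 or Cyp4v3, and the nearest to Cyp2b10 was Cyp2b19 at 87.5%.

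The comparison of the sexes gave no called member, in smoke (0.189% of all genes called), in air (0.177%) or in the interaction of sex and smoke (0.00611%). By edgeR's unadjusted p under 0.05 there were 4, 3 and 1 of 38 members, beside 7.74%, 9.27% and 5.75% of all genes, and DESeq2 called 0 in each. The smallest adjusted p in smoke was 0.538, for Cyp20a1 at 35.5 ± 1.43 CPM in males and 30.9 ± 2.64 in females (SD, n = 5 each). In air it was 0.410, for Cyp2e1.

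The ovariectomy comparison asks whether loss of the ovaries altered P450 levels in smoke-exposed females. With 60 members tested, 0 were called at 3 months (0% of 16874 genes called) and 0 at 5 months (1.36%). At an unadjusted p under 0.05 there were 6 and 1 of 60 members, beside 9.29% and 15.5% of all genes, and DESeq2 called 6 (0.586% of all genes by that test) and 0. The 6 genes that DESeq2 called at 3 months (Cyp2c29, Cyp2c37, Cyp2c50, Cyp2c69, Cyp2d10 and Cyp4a14) were higher after ovariectomy, where 2 of 3 libraries and none of the sham libraries held over 100 CPM of Alb. All 21 genes of the liver-RNA group passed the filter here, through those libraries. Cyp2a5 had the smallest adjusted p at 3 months: it was 61.6, 89.9 and 57.2 CPM after ovariectomy and 35.3, 36.9 and 7.55 CPM after sham surgery. The groups did not overlap, but the log2 difference of 1.39 had an SE of 0.56 and an adjusted p of 0.486. At 5 months Cyp2a5 overlapped, with a log2 difference of 0.40 (SE 0.42). Cyp2b10 at 5 months was 586 ± 69.7 CPM after sham surgery and 615 ± 22.5 after ovariectomy (SD, n = 5 each), a log2 difference of 0.07 (SE 0.07, adjusted p = 0.706).

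The comparison of 5 with 3 months of smoke gave 0 called members in sham mice (0.00593% of all genes), 0 after ovariectomy (0.0178%) and 0 in the interaction (0%). Members with an unadjusted p under 0.05 numbered 1, 2 and 3 of 60, beside 8.65%, 9.83% and 5% of all genes, and DESeq2 called 6 (0.661% of all genes by that test), 0 and 5 (0.151%). These were the 6 genes of the ovariectomy comparison at 3 months and, in the interaction, the same without Cyp4a14. Cyp8b1, a sterol hydroxylase of bile acid synthesis, had the smallest adjusted p after ovariectomy, with 1.24, 1.12 and 3.26 CPM at 3 months and 0.550, 0.204, 0.261, 0.551 and 1.02 CPM at 5 months. These groups did not overlap (log2 difference -1.84, SE 0.59, adjusted p = 0.294).

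The 21 genes of the liver-RNA group were 10 genes of chromosome 19 (Cyp2c37, Cyp2c38, Cyp2c40, Cyp2c54, Cyp2c67, Cyp2c68, Cyp2c69, Cyp2c70, Cyp17a1 and Cyp26a1), 3 of chromosome 7 (Cyp2a22, Cyp2b9 and Cyp2b13), 3 of chromosome 5 (Cyp3a16, Cyp3a44 and Cyp3a59), 3 of chromosome 4 (Cyp4a10, Cyp4a14 and Cyp7a1), Cyp2d40 and Cyp4f14. They include Cyp7a1, the rate-limiting enzyme of bile acid synthesis, and Cyp17a1, a steroid hydroxylase and lyase. Summed, they reached 17.2 to 113 CPM in the 7 libraries over 100 CPM of Alb and 0.149 to 3.46 CPM in the other 25. The group was defined by counts in those 7 libraries, so this gap follows from the sorting and is no finding. Male air library 2 (3.46 CPM) and female air library 1 (1.60 CPM) were the highest of the 25, and they also came next in Alb. None of the 21 was at 0 in all of the 25 libraries. Cyp2b9 and Cyp2b13, with the promoters shown above, had 19 and 15 counts in those 25 libraries together, where Cyp2b10 had 222844.

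Of the 13 genes between, 9 reached 10 counts outside the 7 libraries only in male air library 2 or female air library 1: Cyp1a2, Cyp2a12, Cyp2c29, Cyp2c50, Cyp2d10, Cyp2d26, Cyp2j5, Cyp3a11 and Cyp3a25. Cyp3a11, the main CYP3A enzyme of mouse liver, was the highest of them, with up to 972 counts in library 3 of ovariectomy at 3 months and 55 in male air library 2. The other 4 (Cyp2a4, Cyp2b19, Cyp2g1 and Cyp11a1) reached 10 counts in libraries low in Alb too. Among these Cyp11a1, the enzyme that cleaves the side chain of cholesterol, had at most 21 counts there.

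**Figure D4:**
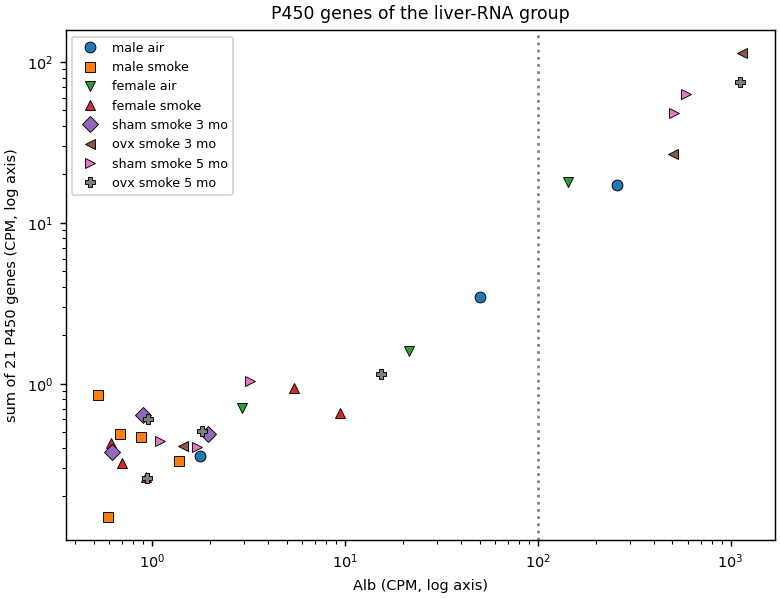
Summed CPM of the 21 genes of the liver-RNA group against Alb (both axes logarithmic, 1 symbol per library, by group; dotted line at 100 CPM). The 7 libraries right of the line lie at 17.2 to 113 CPM, the other 25 at 0.149 to 3.46 CPM. This gap follows from how the group was defined.

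Relative to Alb, the liver P450 genes did not have 1 fixed ratio across the 7 libraries. Of 33 genes compared in this way, 10 had no count in male air library 1, the only male library of the 7, which held 4422 counts of Alb. The other 23 were present. They include Cyp2e1 and Cyp7b1 of the lung group, which had at least 10 counts in all 32 libraries whatever their Alb. Among the 10 were 7 with counts in all 6 female libraries: Cyp2a4, Cyp2a22, Cyp2b9, Cyp2b13, Cyp2c40, Cyp2c69 and Cyp17a1. Reads may have been split among near-identical copies here too. The transcript nearest to Cyp2c40 was Cyp2c68 (98.0% identical), with 22 counts in the male library. That nearest to Cyp2a22 was Cyp2a12 (96.2%), with 29 counts there. For Cyp2c69 and Cyp2c67 the nearest was Cyp2c40 (97.7% and 97.6%). Cyp2c67 had 31 counts in the male library, or 7.01 per 1000 Alb counts, beside 0 to 3.44 in the females. The part of read assignment in these values was not tested. Cyp2b9 and Cyp2b13 were 89.3% identical, and Cyp17a1 had no such copy. For Cyp2a22 the lowest female value, 0.34 counts per 1000 Alb counts, lay below a floor of 3 counts in the male library (0.678 per 1000). For the other 6 the lowest female value lay above that floor. Cyp2c69 was at 6.49 to 13.6 counts per 1000 Alb counts in the female libraries, whereas 0 counts in the male library allow up to 0.678 per 1000 (a floor of 3 counts; the 2-sided exact interval ends at 0.834). The lowest female values of Cyp2b13 (0.829) and Cyp17a1 (0.92) were close to that limit, and the value of Cyp2b13 lay under the interval end. Cyp2b9 was at 4.14 to 12.2 per 1000 and Cyp2c40 at 2.24 to 8.83 per 1000 in females. In female air library 2, with 2945 counts of Alb, fewer than the male library, Cyp2b9 still had 36 counts, Cyp2c69 33 and Cyp2c40 26. Male air library 2, with 852 counts of Alb, held 3 counts of Cyp2c40 (3.52 per 1000, inside the female range), 2 each of Cyp2a4 and Cyp17a1 and 5 of Cyp2c38. It held 0 of Cyp2b9, Cyp2b13 and Cyp2c69, which allows up to 3.52 per 1000. Other liver genes were as high in the male library as in the females: Cyp3a11 was at 75.1 counts per 1000 Alb counts there and at 20.1 to 68.9 in females, and Cyp2c29 at 28.3 and 9.5 to 21.7. Just outside the threshold, Cyp2d9 had 116 counts in male air library 1 and 16 in male air library 2, and at most 8 in any other library. As background, Cyp2b9, Cyp2b13, Cyp2a4, Cyp2c40 and Cyp2c69 are known as female-predominant and Cyp2d9 as male-predominant genes of mouse liver. The pattern was noticed in the values and rests mainly on 1 male library, so that it has no test. Selection also shaped it: members needed at least 10 counts in 3 libraries, which the female libraries over 100 CPM of Alb could supply alone. Male air libraries 1 and 2 could not, so that male-predominant liver genes such as Cyp2d9 tended to stay outside.

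**Figure D5:**
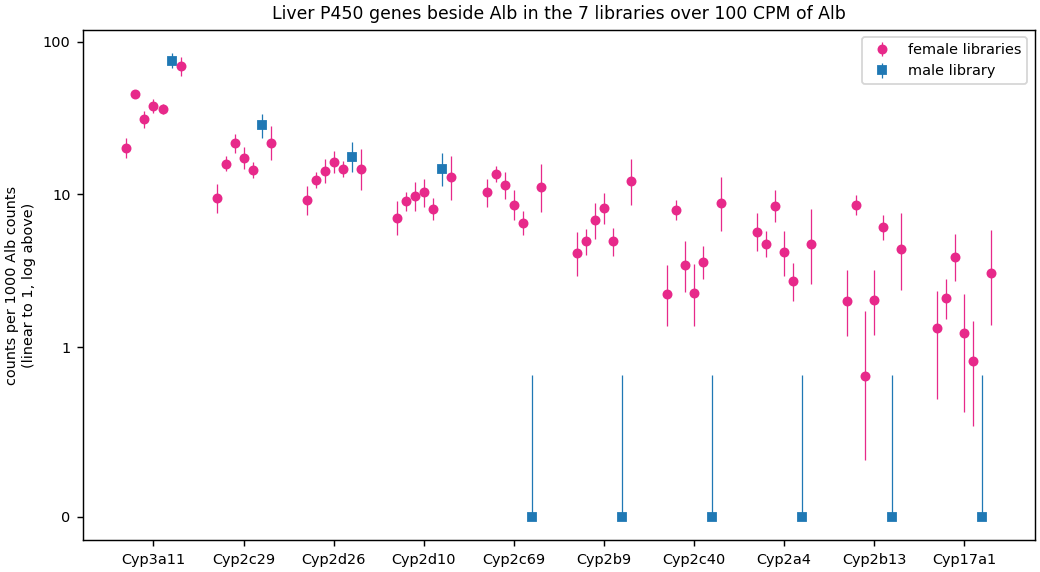
Counts of 10 liver P450 genes per 1000 counts of Alb in the 7 libraries over 100 CPM of Alb (axis linear up to 1 and logarithmic above; bars are exact 95% Poisson intervals of the gene's count, for counting error only). The male library (square) is at 0 for the 6 genes on the right and among or above the female libraries (circles) for the 4 on the left.

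Even among the 6 female libraries the ratios moved. Cyp2b13 was at 8.55 and 6.12 per 1000 Alb counts in the 2 libraries highest in Alb (library 3 of ovariectomy at 3 months and library 5 of ovariectomy at 5 months), and at 0.829 in library 1 of sham at 5 months. Cyp2c67 had 0 counts in library 5 of ovariectomy at 5 months, which held 18477 Alb counts, and 74 in library 3 of ovariectomy at 3 months. Cyp4a10, a fatty acid hydroxylase, was at 0.894 per 1000 in library 2 of ovariectomy at 3 months and at 9.94 in library 3 of the same group.

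Other genes of the pathway were taken from lists. Of all genes tested in smoke against air, 7.7% were called in females and 10.3% in males, and 0.189% between the sexes in smoke. Counts near these shares, such as 2 of 20 conjugating enzymes in males, are no result about a list. Of 9 electron donors, Por fell in females exposed to smoke (1.92-fold, adjusted p = 0.0142) and none was called in males. Of 9 flavin monooxygenases and epoxide hydrolases, Fmo1 and Ephx1 fell in both sexes (1.38-fold and 1.27-fold in females, 1.24-fold and 1.32-fold in males). The female call of Ephx1 ended in 8 of 16 fits without 1 library and the male call of Fmo1 in 4. In males Ephx2 also fell (1.61-fold) and Fmo5 rose (1.31-fold). Ephx2 was 12.7, 11.0 and 8.44 CPM in male air libraries 1 to 3 and 4.87 to 8.20 CPM in male smoke. It was highest in 2 libraries with liver RNA, library 5 of ovariectomy at 5 months (20.6 CPM) and library 3 of ovariectomy at 3 months (18.1 CPM). Its call ended in 4 of 16 fits, among them those without male air library 1 or 2, and under 4 of 9 other alternatives. The part of liver RNA in this fall was not tested. Of 20 conjugating enzymes tested, Gsta3, a glutathione transferase, rose in males (1.53-fold, adjusted p = 2.53e-04) together with Gstt1 (1.25-fold), and 0 were called in females. Gsta3 was also higher in males than in females in smoke (1.42-fold, adjusted p = 0.00271). Of 3 P450 enzymes with other symbols (Cyp51, Tbxas1 and Ptgis), the prostacyclin synthase Ptgis fell in females (1.29-fold, adjusted p = 0.0185). Of 14 nuclear and aryl hydrocarbon receptor genes tested, 0 were called in either sex.

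The PAR bZIP factors Dbp, Tef and Hlf, clock-controlled activators of many P450 genes, fell in both sexes. Dbp fell 6.87-fold in females (adjusted p = 0.00147) and 7.89-fold in males (adjusted p = 7.81e-04). Their antagonist Nfil3 rose 2.23-fold in females (adjusted p = 0.00464). The Hlf call ended in females without female air library 1 or 3, and the Tef call in males without male air library 2. Under 9 other alternatives the Hlf call ended in 1 in each sex. At 5 months of smoke, Tef (1.42-fold) and Hlf (1.31-fold) were higher after ovariectomy than after sham surgery, and Nfil3 was 1.84-fold lower. Among the electron donors Fdx1, the mitochondrial ferredoxin, was 1.23-fold higher (adjusted p = 0.0379), where 1.36% of all genes were called. With single libraries left out, the call of Fdx1 ended in 10 of 16 fits, of Hlf in 8, of Nfil3 in 5 and of Tef in 1. Under 9 other alternatives these calls ended in 5, 4, 3 and 1. At 3 months of smoke 0 of the 4 factors were called (0% of all genes), and values are given as a description. How many of all genes failed to overlap between these small groups was not counted. Tef was at 188 to 209 CPM after sham surgery and at 257 to 348 CPM after ovariectomy. Hlf was at 37.9 to 48.0 and 63.8 to 73.7 CPM, and Nfil3 at 14.3 to 15.0 and 4.20 to 6.68 CPM. In the smoke comparison markers of endothelium and fibroblasts moved as well: 7 of 8 and 5 of 8 fell in each sex. The parts of cell composition and of the time of day of collection in these values were not tested. Without libraries over 10 CPM of Alb, Dbp, Tef and Nfil3 stayed called in females, whereas in males Tef was at a log2 difference of -0.04 (adjusted p = 0.927) and Dbp at -1.56 (adjusted p = 0.0539).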

How the data were processed

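Per the labels' protocols, Trizol was used for extraction and the NEBNext Ultra 2 kit for the libraries. The submitters' processing notes name FastQC, GRCm38 and mm10; how reads were aligned and counted is not given in the sources used here. The authors deposited raw counts per gene and TPM (length-scaled transcript abundance) for the same 32 libraries; 100% of the deposited TPM values matched counts divided by gene length within a tolerance of 1e-06. TPM was used only to compare genes.

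Counts were tested per experiment with edgeR 4.0.16 in R 4.3.3 (filterByExpr by group, TMM, robust quasi-likelihood fit, 1 mean per group), with Benjamini-Hochberg adjustment over all 16361 or 16874 genes tested and calls at an adjusted p under 0.05. CPM values are TMM-scaled within an experiment. The alternatives were RLE size factors, no filter, a strict filter, the replicate number as a block, fewer or all libraries in the fit, DESeq2 1.42.0, and leaving out libraries singly or by Alb; the limit of 10 CPM of Alb was added after seeing the data. On simulated counts the test recovered 76% of 50 changes of 2-fold in females, 72% in males and 76% in the ovariectomy comparison at 5 months. Named are the called genes, the 10 with the highest median TPM, those of the liver-RNA group, those nearest the threshold and called genes of the lists. Other genes, the limits of the 3 detection groups and the per-Alb comparison were chosen after their values were seen. The members and all lists were chosen with earlier results of these data known. Intervals and floors cover counting error only.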

Additional observations from a re-analysis of the deposited data

Results flagged for a closer look

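Over the 62 genes and the groups of 5 libraries, leaving out genes under 10 counts in a group's highest library, 45 values stood apart from the other 4 by Dixon's criterion, which chance alone meets in about 1 of 20 groups. Of these, 35 belonged to library 5 of ovariectomy at 5 months, which held 1113 CPM of Alb. It was high, in CPM, for the CYP2C genes Cyp2c29 (16.0), Cyp2c37 (10.2), Cyp2c38 (0.662), Cyp2c40 (4.04), Cyp2c44 (10.1), Cyp2c50 (11.0), Cyp2c54 (6.26), Cyp2c68 (1.81), Cyp2c69 (7.23) and Cyp2c70 (2.77). Among CYP2A and CYP2B genes it was high for Cyp2a4 (3.01 CPM), Cyp2a12 (7.35), Cyp2a22 (1.26), Cyp2b9 (5.48), Cyp2b13 (6.81) and Cyp2b19 (1.81). Other CYP1 and CYP2 genes were Cyp1a2 (5.18 CPM), Cyp2d10 (8.97), Cyp2d26 (16.3), Cyp2d40 (1.75), Cyp2j5 (5.3) and Cyp2t4 (3.07). The CYP3A genes were Cyp3a11 (40.2 CPM), Cyp3a13 (20.4), Cyp3a16 (0.903), Cyp3a25 (6.99), Cyp3a44 (1.21) and Cyp3a59 (0.964), and the CYP4 genes Cyp4a10 (3.19), Cyp4a14 (10.7) and Cyp4f14 (5.0). Enzymes of sterols, steroids and retinoic acid followed, with Cyp7a1 at 1.63 CPM, Cyp7b1 at 10.7, Cyp17a1 at 1.02 and Cyp26a1 at 2.29. Library 1 of sham at 5 months, with 586 CPM of Alb, was high for Cyp17a1 (2.29 CPM) and Cyp2c54 (0.972).

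The other 8 values came from lung-group genes in libraries under 10 CPM of Alb. With 28 lung-group genes checked in each group of 5 libraries, several such values arise by chance at the rate given above. Cyp4b1 was at 802 CPM in female smoke library 2, above 602 to 632 CPM in the other 4. Cyp2d22 was low in male smoke library 4, at 43.7 CPM against 55.8 to 56.5 CPM. Cyp39a1 was at 31.9 CPM and Cyp3a13 at 16.1 CPM in library 4 of sham at 5 months. Cyp4f17 was low in library 4 of ovariectomy at 5 months, at 5.3 CPM against 9.35 to 10.7 CPM. Cyp46a1 was at 1.78 CPM in male smoke library 1. Cyp4v3 was at 116 CPM in library 3 of ovariectomy at 5 months and at 108 CPM in male smoke library 1.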

How the results depend on the processing

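In females, where 1 member was called, the count was 2 with no filter, with only the groups compared, with all 32 libraries in 1 fit and without libraries over 10 CPM of Alb, 3 with DESeq2, and 1 to 10 when single libraries were left out. In males, where 8 were called, it was 3 with only the groups compared, with all 32 libraries and without libraries over 100 CPM of Alb, 1 (Cyp3a13) without those over 10 CPM, and 3 to 12 with single libraries left out. DESeq2 called 6 members in the ovariectomy comparison at 3 months, 6 for time in sham mice and 5 in the interaction of surgery and time, where 0 were called otherwise. The rise of Cyp4f39 in females was kept in all 16 fits without 1 library and under all 9 other alternatives; in males it and Cyp2b10 were kept in all 16 and under 8 of 9. The cause of the other changes was not tested. No value reversed its sign.

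Replicate numbers did not pair the samples: deviations of same-numbered libraries correlated at -0.265 to 0.194 in the first experiment and -0.405 to 0.196 in the second. With the replicate block 4 members were called in females (Cyp1a2, Cyp2d10, Cyp4f39 and Cyp4v3). Genes with few counts, as most of the liver-RNA group, could not be compared at this depth in libraries low in Alb.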
